A study of Homo sapiens with 9 samples.

Results

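The genes described here are 9 genes of the cytotoxic lymphocyte programme, among 19569 genes in the count table: the T-box transcription factor genes TBX21 and EOMES, the receptor gene CRTAM, the granzyme genes GZMA, GZMB, GZMK and GZMM, the perforin gene PRF1 and the serglycin gene SRGN. They were matched by symbol, and all 9 were found. Messenger RNA was counted in Jurkat cells of Clone E6-1, a long-used T-cell line from a human leukaemia, in 3 groups of 3 libraries: untreated control cells (0 h), and cells 5 h or 12 h after activation. Activation used plate-bound anti-CD3 antibody (10 μg/mL for coating) with anti-CD28 antibody in the medium (5 μg/mL). All groups are the same clonal line in the same medium, and none is an untreated culture kept for 5 h or 12 h, so that the effects of activation and of the hours in culture cannot be told apart. The members were chosen by their changes in level between 0 h, 5 h and 12 h, so their values are given below as a description, without a test.

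Cytotoxic lymphocytes kill by releasing granules towards a target cell. Perforin opens a path through the target membrane, granzymes are serine proteases that enter through it, and serglycin is the proteoglycan that holds both in the granule. T-bet (from TBX21) and eomesodermin (from EOMES) are related T-box factors that drive this programme in CD8 T cells and NK cells. CRTAM, a receptor of the nectin-like family that binds CADM1, appears on activated CD8 T cells and NK cells and marks the CD4 T cells that can become cytotoxic.

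The 9 libraries held 4222258 to 9359187 counts each, and levels are given as CPM (counts scaled to a normalised library size of 1000000). The labelled cell type, a T lymphoblast, was checked with 14 T-cell genes. Their summed level ran from 5835 to 6854 CPM at 0 h, from 6034 to 7051 CPM at 5 h and from 5863 to 6792 CPM at 12 h. Within that sum, 3 genes were called higher and 6 lower at 5 h than at 0 h, or 21.4% and 42.9% (24.9% and 24.8% of all genes tested). Among them were CD5 (log2 1.62), CD3G (log2 -1.07) and CD7 (log2 -1.08). The coreceptor genes were the low ones, with CD4 at 9.96 ± 0.490 CPM and CD8A at 1.498 ± 0.0353 CPM at 0 h (SD, n = 3). The summed level of 14 NK-cell genes ran from 10.7 to 12.8 CPM at 0 h, from 14.2 to 21.0 CPM at 5 h and from 13.1 to 18.8 CPM at 12 h. All 14 had a count in some library, with NCR1 at 0 in every 0 h and 5 h library and KLRF1 at 0 in every 0 h library. KLRD1 was the largest part of that sum, with means of 4.87 CPM at 0 h, 11.2 CPM at 5 h and 10.1 CPM at 12 h. NCR3 went down, with means of 2.345, 1.463 and 0.694 CPM at these times. The summed level of 13 genes of other leukocytes ran from 167 to 209 CPM at 0 h, from 93.7 to 122 CPM at 5 h and from 134 to 158 CPM at 12 h, with S100A8 at 0 in all libraries. CD79A, a B-cell receptor chain gene, made up nearly all of that sum, at 101 ± 15.8 CPM at 5 h, 142 ± 12.5 CPM at 12 h and 177 ± 22.4 CPM at 0 h, and was called lower at both times. The part of these genes in the results was not tested. In a bulk culture, fewer cells that express a gene and less RNA per cell cannot be told apart.

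The 9 genes did not move as a block. CRTAM, TBX21, EOMES, GZMB and SRGN were all far higher at 5 h than at 0 h. From 5 h to 12 h they parted: TBX21 and CRTAM were much lower again, SRGN was moderately lower, and EOMES and GZMB stood where they had been. GZMA and GZMK were highest at 12 h. PRF1 and GZMM were highest in control cells. The panels of level by library show these courses.

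**Figure D1:**
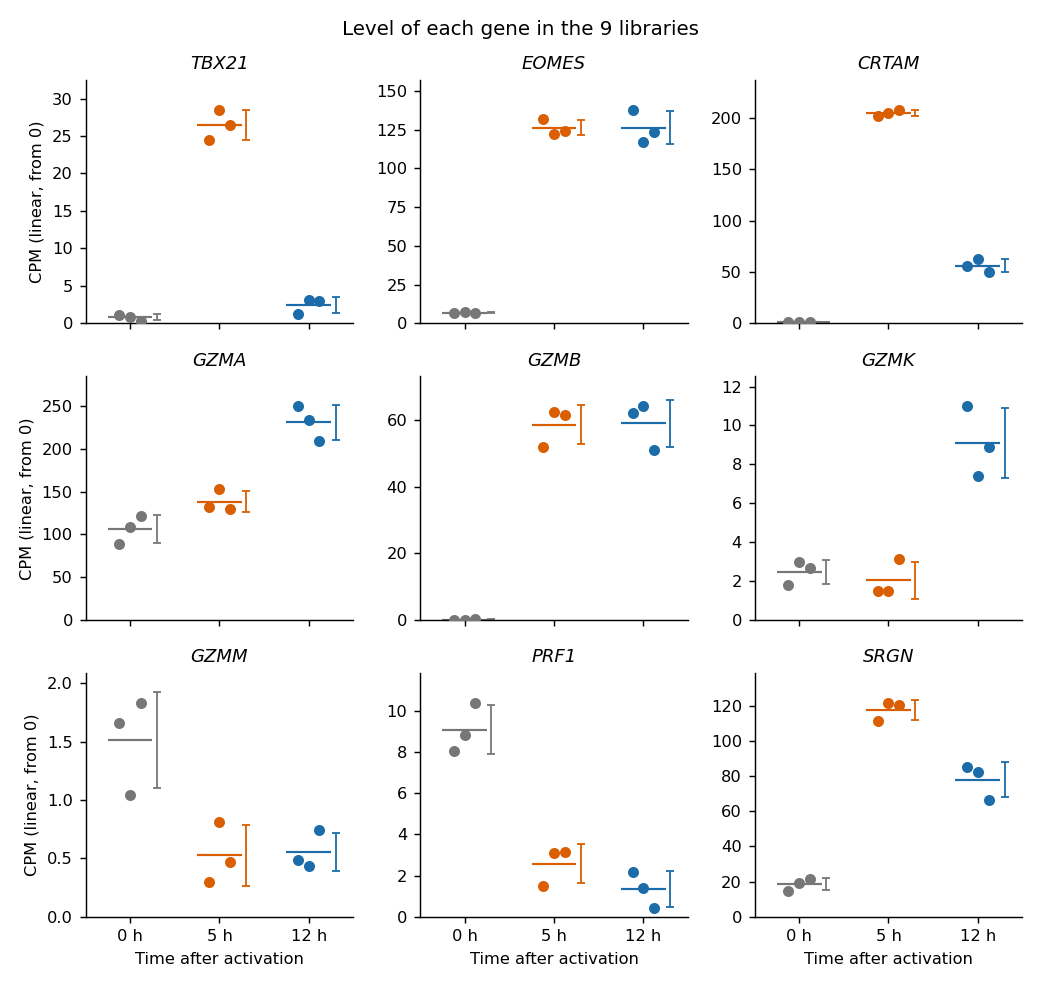
CPM of each of the 9 genes (linear axes from 0, a separate scale per panel) in the 3 libraries at 0 h, 5 h and 12 h; dots are libraries, the horizontal line is the mean and the bar beside it is ± 1 SD (n = 3). TBX21 and CRTAM peak at 5 h, EOMES and GZMB are at about the same level at 5 h and 12 h, GZMA and GZMK are highest at 12 h, and PRF1 and GZMM are highest at 0 h.

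TBX21 lies on chromosome 17 (47733244 to 47746119, plus strand, GRCh38). Its levels were 1.15, 0.897 and 0.366 CPM in the 0 h libraries, 24.5, 28.5 and 26.5 CPM at 5 h, and 1.22, 3.16 and 2.96 CPM at 12 h. At 5 h the gene stood well clear of both other times, while the lowest 12 h library, with 5 counts, lay just above the highest 0 h library, with 9 counts in a deeper library. The fitted log2 difference was 5.03 ± 0.28 (SE) for 5 h minus 0 h, 1.72 ± 0.40 for 12 h minus 0 h and -3.31 ± 0.23 for 12 h minus 5 h. Its mean at 12 h was 0.0924 of its mean at 5 h.

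EOMES lies on chromosome 3 (27715949 to 27722711, minus strand). It had 6.65, 7.03 and 6.95 CPM at 0 h, 131.6, 122.4 and 124.4 CPM at 5 h, and 137.9, 116.9 and 123.8 CPM at 12 h. Both activated groups lay far above the control libraries and overlapped each other. The log2 difference was 4.19 ± 0.12 at each of 5 h and 12 h against 0 h (SE), with means of 126 ± 4.80 CPM at 5 h and 126 ± 10.7 CPM at 12 h (SD, n = 3). For 12 h minus 5 h the SE was 0.09, on a difference that rounds to 0.

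The balance between the T-box genes was not the same at each time. Per kilobase of exon, the ratio of EOMES to TBX21 was 4.13 to 13.6 in the 0 h libraries, 3.07 to 3.84 at 5 h and 26.4 to 80.8 at 12 h. The 12 h libraries lay above all others, and the 0 h and 12 h ratios rest on 3 to 29 TBX21 counts per library.

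CRTAM lies on chromosome 11 (122838500 to 122872639, plus strand). It had 1.41, 0.897 and 1.59 CPM at 0 h, 201.5, 204.5 and 207.9 CPM at 5 h, and 55.6, 62.6 and 50.3 CPM at 12 h. The 3 groups did not overlap, and the 5 h libraries agreed to within a few per cent of one another. The log2 difference was 7.26 ± 0.16 (SE) for 5 h minus 0 h, 5.40 ± 0.17 for 12 h minus 0 h and -1.86 ± 0.10 for 12 h minus 5 h. An antisense transcript gene overlaps CRTAM, and the strand setting of the counting is not given in the sources used here. The same holds for GZMB and GZMK, which also have an annotated gene on the opposite strand.

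GZMB, which encodes granzyme B, the protease that cleaves after aspartate and activates caspases, lies on chromosome 14 (24630954 to 24634267, minus strand). It had 0, 0 and 2 counts in the 0 h libraries. At 5 h it had 344, 460 and 392 counts, or 51.7, 62.2 and 61.4 CPM, and at 12 h it had 254, 587 and 343 counts, or 62.0, 64.0 and 50.8 CPM. The gene was thus at the edge of detection in control cells and at the same level in both activated groups. Over the pooled counts of each group, the ratio of 5 h to 0 h was 664.6 (95% exact counting interval 183.6 to 5494) and that of 12 h to 0 h was 671 (185.5 to 5551). The ratio of 12 h to 5 h was 1.01 (0.931 to 1.10). These intervals cover counting error only. GZMH, a close relative of GZMB that lies 21.2 kb away on the same chromosome, had 23 counts in all 9 libraries.

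Upstream sequence of GZMB, TBX21 and PRF1 is shown because these genes stand for the sustained, the transient and the lower course. RefSeq promoter windows of 300 bases were found for 5 of the 9 genes (EOMES, GZMA, GZMB, PRF1 and TBX21), on GRCh38.p14. The stretches below run 5′ to 3′ on the gene's strand and end before every start annotated in RefSeq or GENCODE release 29. Capitals mark an AP-1 motif (TGANTCA), the core of a cyclic AMP response element (GACGTCA), a RUNX motif (TGTGGT) or a T-box half-site (TCACAC), each on either strand.
GZMB, chr14:24634268-24634440, minus strand: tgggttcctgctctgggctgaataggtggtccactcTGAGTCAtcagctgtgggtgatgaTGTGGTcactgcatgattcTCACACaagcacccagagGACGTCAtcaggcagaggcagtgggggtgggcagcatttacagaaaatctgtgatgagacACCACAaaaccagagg
TBX21, chr17:47732986-47733235, plus strand: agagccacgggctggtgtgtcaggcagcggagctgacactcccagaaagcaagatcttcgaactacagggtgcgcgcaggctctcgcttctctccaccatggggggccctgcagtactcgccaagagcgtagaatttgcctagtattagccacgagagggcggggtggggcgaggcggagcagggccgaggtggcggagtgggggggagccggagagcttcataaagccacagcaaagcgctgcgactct
PRF1, chr10:70602776-70602991, minus strand: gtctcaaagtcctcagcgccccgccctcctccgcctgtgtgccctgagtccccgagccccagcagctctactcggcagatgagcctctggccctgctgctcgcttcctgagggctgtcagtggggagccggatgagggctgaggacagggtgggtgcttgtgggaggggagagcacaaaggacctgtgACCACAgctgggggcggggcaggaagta

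In the 250 bases before the RefSeq start, GZMB held 1 AP-1 motif, 1 response element core, 2 RUNX motifs and 1 T-box half-site. None of the marked matches overlaps another. PRF1 and GZMA each held 1 RUNX motif and none of the other marked motifs, and TBX21 and EOMES held none of the 4. A short NFAT core (GGAAA), which was also searched and is not marked, occurred 5 times in EOMES, 3 times in GZMA, 2 times in GZMB and not in PRF1 or TBX21. Of 35116 promoter windows of that length, 6.57% held the AP-1 motif, 3.12% the response element core, 10.98% the RUNX motif and 9.90% the T-box half-site, and 2 windows held all 4. The NFAT core was in 55.65% of the windows. The letters were chosen with the GZMB sequence in view, and a match is a description of the letters, not of a bound site.

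GZMA, which encodes granzyme A, a protease with trypsin-like specificity, was the granzyme gene with the highest level per length at every time. It lies on chromosome 5 (55102648 to 55110252, plus strand). Its levels were 88.5, 108 and 121 CPM at 0 h, 132, 152 and 130.2 CPM at 5 h, and 249, 234 and 209 CPM at 12 h. The groups did not overlap, although the gap between the highest 0 h library and the lowest 5 h library was small. The log2 difference was 0.39 ± 0.11 (SE) for 5 h minus 0 h, 1.12 ± 0.11 for 12 h minus 0 h and 0.74 ± 0.11 for 12 h minus 5 h.

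GZMK, which encodes another trypsin-like granzyme, lies 68.1 kb from GZMA on the same strand (chromosome 5, 55024253 to 55034570). It was scarce, with 1.79, 2.99 and 2.68 CPM at 0 h, 1.504, 1.487 and 3.13 CPM at 5 h, and 10.98, 7.41 and 8.88 CPM at 12 h. The 0 h and 5 h libraries overlapped, and all 12 h libraries lay above them. The log2 difference was -0.29 ± 0.36 (SE) for 5 h minus 0 h, 1.84 ± 0.30 for 12 h minus 0 h and 2.13 ± 0.31 for 12 h minus 5 h. The neighbouring pair thus shared a higher level at 12 h, while the GZMK change between 0 h and 5 h was within its error.

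PRF1, which encodes perforin, lies on chromosome 10 (70597348 to 70602775, minus strand). It had 8.05, 8.82 and 10.4 CPM at 0 h, 1.504, 3.11 and 3.13 CPM at 5 h, and 2.20, 1.42 and 0.444 CPM at 12 h. Control libraries lay above all activated libraries, and the 5 h and 12 h groups overlapped. The log2 difference was -1.80 ± 0.31 (SE) for 5 h minus 0 h and -2.83 ± 0.36 for 12 h minus 0 h. The 12 h libraries held 9, 13 and 3 counts, so the later level is known only roughly.

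GZMM, which encodes granzyme M, a protease that prefers methionine or leucine, lies on chromosome 19 (544034 to 549924, plus strand). It had 13, 7 and 15 counts at 0 h, 2, 6 and 3 counts at 5 h, and 2, 4 and 5 counts at 12 h. It was the 1 gene of the 9 that did not pass the filter on low counts, so it has no fitted difference. On pooled counts, the ratio of 5 h to 0 h was 0.349 (95% exact counting interval 0.160 to 0.704) and that of 12 h to 0 h was 0.357 (0.163 to 0.718).

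SRGN lies on chromosome 10 (69088106 to 69104811, plus strand). It had 14.6, 19.4 and 21.2 CPM at 0 h, 111, 121.5 and 120.6 CPM at 5 h, and 84.9, 82.3 and 66.5 CPM at 12 h. The 3 groups did not overlap, with 5 h highest and 12 h between. The log2 difference was 2.68 ± 0.13 (SE) for 5 h minus 0 h, 2.08 ± 0.13 for 12 h minus 0 h and -0.60 ± 0.11 for 12 h minus 5 h.

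**Figure D2:**
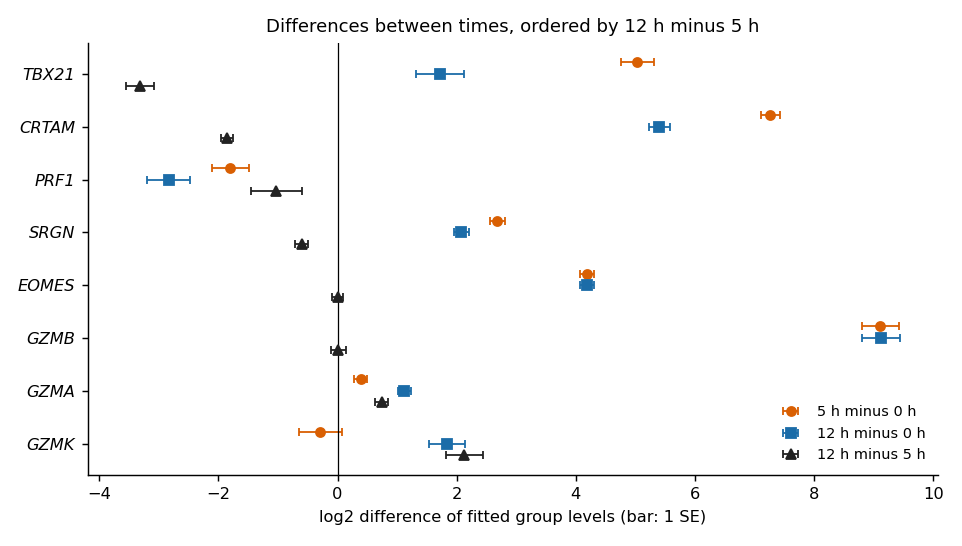
Fitted log2 differences of the 8 genes that passed the filter on low counts (horizontal axis), for 5 h minus 0 h (circles), 12 h minus 0 h (squares) and 12 h minus 5 h (triangles), with bars of ± 1 SE; genes run from the lowest 12 h minus 5 h difference at the top to the highest at the bottom. TBX21 (-3.31) and CRTAM (-1.86) are at the top, EOMES and GZMB sit at 0 for 12 h minus 5 h, and GZMK (2.13) is at the bottom; GZMB rests on 2 counts at 0 h.

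Of the 8 genes tested, the edgeR fit over all genes called 6 higher and 1 lower at 5 h than at 0 h, beside 24.9% of 12036 genes called higher and 24.8% lower (49.7% in either direction). At 12 h against 0 h it called 7 higher and 1 lower, beside 26.3% and 24.8% (51.1% in either direction). At 12 h against 5 h it called 2 higher and 3 lower, beside 18.1% and 18.0% (36.1% in either direction). With a minimum of 2-fold, 5 were higher and 1 lower at 5 h than at 0 h, beside 5.51% and 6.43% of all genes. The 2-fold minimum left 7 higher and 1 lower at 12 h than at 0 h, beside 5.83% and 6.13%, and 1 higher and 2 lower at 12 h than at 5 h, beside 2.08% and 2.24%. The members were picked with these contrasts known, so nothing is read from the counts. The comparisons with 0 h share the same control libraries.

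Levels of different genes were compared per kilobase of exon, using the merged exons of each gene in GENCODE release 29. At 0 h the order was led by GZMA (119 CPM per kilobase), SRGN (15.1) and PRF1 (3.58), each apart from the next. EOMES (1.88), GZMM (1.601) and GZMK (1.585) followed with overlapping libraries, then CRTAM (0.485), TBX21 (0.308) and GZMB (0.0576), each of which overlapped its neighbour in that order. At 5 h the levels per kilobase ran GZMA (155), SRGN (96.6), CRTAM (76.5), GZMB (41.4), EOMES (34.5) and TBX21 (10.1), with no overlap between neighbours. GZMK (1.30), PRF1 (1.02) and GZMM (0.558) came last and overlapped. At 12 h GZMA (258) and SRGN (63.9) still led. GZMB (41.8) and EOMES (34.5) overlapped each other, CRTAM (21.0) and GZMK (5.79) stood apart, and TBX21 (0.936), GZMM (0.587) and PRF1 (0.534) came last with overlap.

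The granzyme message changed in make-up as well as in amount. Summed per kilobase, the 4 granzyme genes reached 122 ± 18.8 CPM at 0 h, 198 ± 16.2 CPM at 5 h and 306 ± 27.3 CPM at 12 h (SD, n = 3). GZMA made up 97.3% ± 0.218 of that sum at 0 h, 78.1% ± 1.90 at 5 h and 84.3% ± 0.451 at 12 h. GZMB made up 0.0413% ± 0.0716 at 0 h, 20.9% ± 1.58 at 5 h and 13.6% ± 0.818 at 12 h. GZMA was thus a smaller share of the sum at 5 h than at 0 h, although its own level was higher. The perforin gene went the other way. Per 100 units of granzyme level, PRF1 stood at 2.81 to 3.12 in the 0 h libraries, 0.319 to 0.645 at 5 h and 0.0634 to 0.262 at 12 h. The summed counts of the 9 genes made up 0.0154% ± 0.00233 of a 0 h library, 0.0656% ± 0.00243 of a 5 h library and 0.0550% ± 0.00426 of a 12 h library (SD, n = 3).

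**Figure D3:**
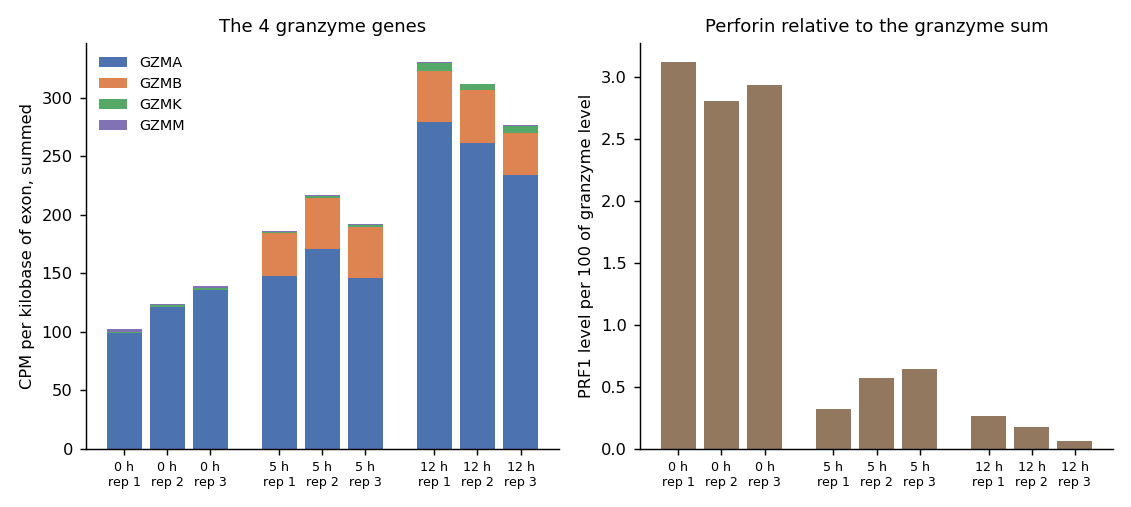
Left: level of the 4 granzyme genes in each library, in CPM per kilobase of exon, stacked (bars start at 0). Right: PRF1 level per 100 units of the granzyme sum in the same libraries. GZMA is nearly the whole bar at 0 h, GZMB takes 19.7% to 22.7% of the bar at 5 h and 13.01% to 14.55% at 12 h, and the PRF1 bars are lower in all activated libraries than in all 0 h libraries.

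Genes with the most similar course were ranked by the root mean square difference between mean-centred log2 CPM profiles over the 9 libraries, which share their depth and treatment. Those nearest to CRTAM were the ectonucleotidase gene ENPP1 (0.33), the MAP kinase phosphatase gene DUSP4 (0.38), the zinc-finger genes EGR1 (0.38) and EGR2 (0.39), and XIRP1 (0.46). Nearest to EOMES were the adhesion receptor gene CD44 (0.19), BICDL1 (0.20), the repressor gene BCL6 (0.21), GNG4 (0.25) and the syntaxin gene STX11 (0.28). For TBX21 they were the chemokine genes CCL3 (0.46) and CXCL8 (0.58), the repressor gene BHLHE40 (0.53), the growth factor gene AREG (0.66) and EGR4 (0.70). For SRGN they were ADAM19 (0.10), the adenosine receptor gene ADORA2B (0.13), GPR101 (0.15), NINJ2 (0.18) and the RNase gene ZC3H12A (0.18). For GZMB they were SCG2 (0.29), ATP6V0A4 (0.66), GBP2 (0.71), IL21R (0.79) and BCL2A1 (0.83), a list that depends on how 0 counts are handled: with a prior count of 0.5 in place of 2, 1 of its 5 genes stayed. The other lists changed less. CD44, at 0.264 CPM at 0 h, left the EOMES list although it had ranked first. XIRP1 left the CRTAM list, GPR101 the SRGN list, and AREG and EGR4 the TBX21 list.

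Other transcription factors that drive or oppose the T-box programme formed a list of 35, of which 30 were tested. At 5 h 21 of them were called higher than at 0 h and 4 lower, or 70.0% and 13.3% (24.9% and 24.8% of all genes tested), with a median log2 difference of 0.88 against 0.001 for all genes. At 12 h 19 were called higher and 4 lower (26.3% and 24.8% of all genes), with a median of 0.84 against -0.001. BHLHE40, which encodes a repressor of IL-10 in T cells, rose to 69.4 ± 4.62 CPM at 5 h, against 2.93 ± 0.469 CPM at 0 h (log2 4.55 ± 0.16 SE, edgeR adjusted p = 1.26e-15). STAT4, which relays interleukin-12 signals, rose to 63.2 ± 7.45 CPM at 5 h and 28.2 ± 4.85 CPM at 12 h, against 4.96 ± 1.05 CPM at 0 h (log2 3.65 and 2.46).

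Some factors known to restrain effector genes were among those that rose. The 4 listed factors called lower at 5 h were RUNX1 (log2 -0.42), TCF7 (log2 -0.35), LEF1 (log2 -0.31) and TOX2 (log2 -2.05). BCL6, the repressor that defines follicular helper T cells, rose to 61.7 ± 3.62 CPM at 5 h and 67.0 ± 7.77 CPM at 12 h, against 3.46 ± 0.664 CPM at 0 h (log2 4.14 and 4.27). BACH2, a repressor of effector genes, rose to 773 ± 48.9 CPM at 5 h and 330 ± 18.5 CPM at 12 h, against 51.3 ± 4.82 CPM at 0 h (log2 3.92 and 2.69). IRF4, a factor of another kind that is induced by T-cell receptor signals, rose to 2.31 ± 0.322 CPM at 5 h, against 0.207 ± 0.188 CPM at 0 h (log2 3.29), and was not called at 12 h (log2 1.39, edgeR adjusted p = 0.119).

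Genes linked to T-bet or eomesodermin, not all of them known direct targets, formed a list called targets below. Of 21 such genes 16 were tested, and 10 were called higher and 1 lower at 5 h than at 0 h, or 62.5% and 6.25% (24.9% and 24.8% of all genes). The median log2 difference was 0.92. IFNG, which encodes interferon gamma, stood at 15.4 ± 1.52 CPM at 5 h and 2.33 ± 0.600 CPM at 12 h, against 3 counts in the 0 h group, a ratio of 117 for 5 h (95% exact counting interval 39.8 to 572.5) and 16.6 for 12 h (5.33 to 83.8). The chemokine gene CCL4 reached 47.0 ± 3.29 CPM at 5 h, a ratio of 357 to 0 h (122 to 1735), and CCL3, with no count at 0 h, was at least 42.6-fold higher at 5 h than a floor of 3 counts over the 0 h group. XCL1 reached 482 ± 27.4 CPM at 5 h. CCL3, CCL4 and XCL1 have near-identical copies, so their counts are uncertain.

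At 12 h 7 of these targets were called higher and 3 lower than at 0 h (26.3% and 24.8% of all genes), with a median of 0.62, or 0.56 with CCL3 at its bound. Against 5 h, 1 was called higher and 9 lower at 12 h (18.1% and 18.0% of all genes). CXCR3, the chemokine receptor that T-bet is known to induce, fell to 3.22 ± 0.822 CPM at 5 h and 1.29 ± 0.275 CPM at 12 h, against 17.1 ± 0.843 CPM at 0 h (log2 -2.42 and -3.66, edgeR adjusted p = 7.71e-09 and 2.23e-10). HAVCR2, which encodes the inhibitory receptor TIM-3, rose to 9.81 ± 1.42 CPM at 5 h and 8.77 ± 2.05 CPM at 12 h, against 1.85 ± 0.603 CPM at 0 h (log2 2.43 and 2.22). CCL5, a chemokine of cytotoxic T cells, had 9.78 ± 1.99 CPM at 5 h and 7.36 ± 1.21 CPM at 0 h, and was not called.

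Effector molecules other than the 9 genes moved unevenly. Of 18 granule proteins, their inhibitors and death ligands 15 were tested, and 6 were called higher and 4 lower at 5 h than at 0 h (24.9% and 24.8% of all genes), with a median log2 difference of -0.03. At 12 h 5 were called higher and 5 lower (26.3% and 24.8% of all genes), with a median of -0.08, and 3 were lower without 12 h replicate 3. The genes with the biggest changes were death ligands and related cytokines. TNFSF10, which encodes the death ligand TRAIL, rose to 167 ± 3.45 CPM at 5 h and 56.0 ± 2.09 CPM at 12 h, against 22.4 ± 1.204 CPM at 0 h (log2 2.90 and 1.32, edgeR adjusted p = 6.57e-16 and 7.78e-10). FASLG, the Fas ligand gene, stood at 3.79 ± 0.475 CPM at 5 h, against 1 count in the 0 h group, a ratio of 85.6 (95% exact counting interval 14.9 to 3423). LTB (log2 3.85), TNF (log2 2.41) and LTA (log2 1.10) also rose at 5 h, and LTA was lower than at 0 h by 12 h, at 2.59 ± 0.614 CPM against 5.34 ± 2.58 CPM, with overlapping libraries, a call that was lost without 0 h replicate 2 or 12 h replicate 3.

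Among the granule proteins and their processing enzymes, some rose, some fell and some were not called. CTSW, which encodes the lymphocyte protease cathepsin W, fell to 33.5 ± 5.23 CPM at 5 h and 30.8 ± 4.74 CPM at 12 h, against 64.5 ± 9.88 CPM at 0 h (log2 -0.94 and -1.06). CST7, which encodes cystatin F, the inhibitor of the cathepsins that process granzymes, rose to 42.4 ± 3.95 CPM at 5 h and 46.9 ± 5.37 CPM at 12 h, against 11.1 ± 1.18 CPM at 0 h (log2 1.94 and 2.09). CTSC, the cathepsin that removes the granzyme propeptide, had 214 ± 9.11 CPM at 5 h, 238 ± 30.2 CPM at 12 h and 251 ± 18.0 CPM at 0 h, and was not called at either time. GNLY, the granulysin gene, was scarce and untested, at 0.987 ± 0.154 CPM at 5 h, 0.923 ± 0.307 CPM at 12 h and 0.167 ± 0.144 CPM at 0 h.

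Among 37 genes of granule transport, docking and fusion, 32 were tested. At 5 h 10 were called higher and 6 lower than at 0 h (24.9% and 24.8% of all genes), with a median log2 difference of 0.08, and at 12 h 10 were called higher and 7 lower (26.3% and 24.8%), with a median of -0.01. The number lower at 12 h dropped to 4 without 0 h replicate 1. STX11, a syntaxin required for granule fusion in human cytotoxic cells, rose to 15.4 ± 1.28 CPM at 5 h and 9.97 ± 1.19 CPM at 12 h, against 0.490 ± 0.107 CPM at 0 h (log2 4.94 and 4.30). LYST, whose loss causes Chediak-Higashi syndrome with giant granules, rose to 218 ± 18.6 CPM at 5 h and 254 ± 29.5 CPM at 12 h, against 21.4 ± 3.17 CPM at 0 h (log2 3.34 and 3.55). SYTL3, a synaptotagmin-like Rab27 effector, rose to 6.51 ± 1.29 CPM at 5 h, against 0.224 ± 0.0874 CPM at 0 h (log2 4.77). RAB27A itself, the GTPase of granule docking, rose by a smaller amount (log2 0.68 at 5 h and 0.48 at 12 h), as did VAMP4 at 12 h (log2 0.77) and SYT11 at 5 h (log2 0.79). UNC13D, which encodes the priming factor Munc13-4, fell to 57.2 ± 7.01 CPM at 5 h, against 87.1 ± 8.09 CPM at 0 h (log2 -0.60).

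For CRTAM, a list of 21 ligands, related receptors and polarity proteins had 18 tested members. At 5 h 4 were called higher and 3 lower than at 0 h (24.9% and 24.8% of all genes), with a median log2 difference of 0.05, and at 12 h 5 were called higher and 1 lower (26.3% and 24.8%), with a median of 0.11. The number lower at 5 h dropped to 1 without 0 h replicate 3 or without 5 h replicate 1. CADM1, the CRTAM ligand, had 15.3 ± 2.44 CPM at 5 h and 21.99 ± 7.25 CPM at 12 h, against 15.6 ± 0.641 CPM at 0 h. It was not called at 5 h and was called higher at 12 h (log2 0.44, edgeR adjusted p = 0.0475), a call lost in 8 of 14 alternatives (adjusted p from 0.0142 to 0.335), most of all without 12 h replicate 1 (log2 0.19). SCRIB, the polarity protein that binds the CRTAM tail, had 56.9 ± 10.2 CPM at 5 h, 69.3 ± 11.02 CPM at 12 h and 65.6 ± 7.62 CPM at 0 h, with no call. CD226, an activating receptor for nectin-family ligands, rose to 355 ± 7.97 CPM at 5 h and 252 ± 22.6 CPM at 12 h, against 154 ± 6.31 CPM at 0 h (log2 1.21 and 0.71). NECTIN1 fell to 14.7 ± 3.18 CPM at 5 h, against 46.1 ± 5.33 CPM at 0 h (log2 -1.65). Smaller calls were CD96 (log2 0.56 at 12 h), PVR (0.49 at 12 h), LLGL2 (-0.70 at 5 h) and CADM4 (-0.51 at 5 h), the last 2 of which were lost in 5 of 14 alternative fits each: DESeq2, and without 0 h replicate 2 or 3, or 5 h replicate 1 or 3.

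For SRGN, a list of 27 genes had 21 tested members: 26 genes that make or modify glycosaminoglycan chains or supply their precursors, and GALNS, a lysosomal sulphatase that breaks such chains down. At 5 h 6 were called higher and 7 lower than at 0 h (24.9% and 24.8% of all genes), with a median log2 difference of 0.01, and at 12 h 9 were called higher and 8 lower (26.3% and 24.8%), with a median of 0.08. The number lower at 5 h dropped to 4 without 0 h replicate 3 or without 5 h replicate 1, and the number higher at 12 h to 5 without 12 h replicate 2. GALNS was among the genes called lower at both times (log2 -0.43 at 5 h and -0.63 at 12 h). CHSY1, a chondroitin synthase, rose to 348 ± 15.1 CPM at 5 h and 206 ± 3.40 CPM at 12 h, against 104 ± 3.02 CPM at 0 h (log2 1.74 and 0.99). CHST12, a chondroitin 4-sulphotransferase, fell to 39.2 ± 3.19 CPM at 5 h and 61.3 ± 7.80 CPM at 12 h, against 133 ± 15.1 CPM at 0 h (log2 -1.76 and -1.11). CHST11, another chondroitin 4-sulphotransferase with a far higher count, was at 961 ± 17.7 CPM at 5 h and 696 ± 29.3 CPM at 0 h (log2 0.46). DSE, an epimerase that makes dermatan sulphate, fell (log2 -1.24 at 5 h), as did the chain-initiating XYLT1 (-1.10 at 12 h). XYLT2, the other chain-initiating gene in the list, was called higher at 12 h (log2 0.39). It had 49.2 ± 10.9 CPM there, against 38.0 ± 4.10 CPM at 0 h, with overlapping libraries. The linker enzyme gene B3GALT6 fell (-0.92 at 12 h). CHST7 rose at 12 h (0.79), a call lost without 0 h replicate 2, 12 h replicate 1 or 12 h replicate 2.

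**Figure D4:**
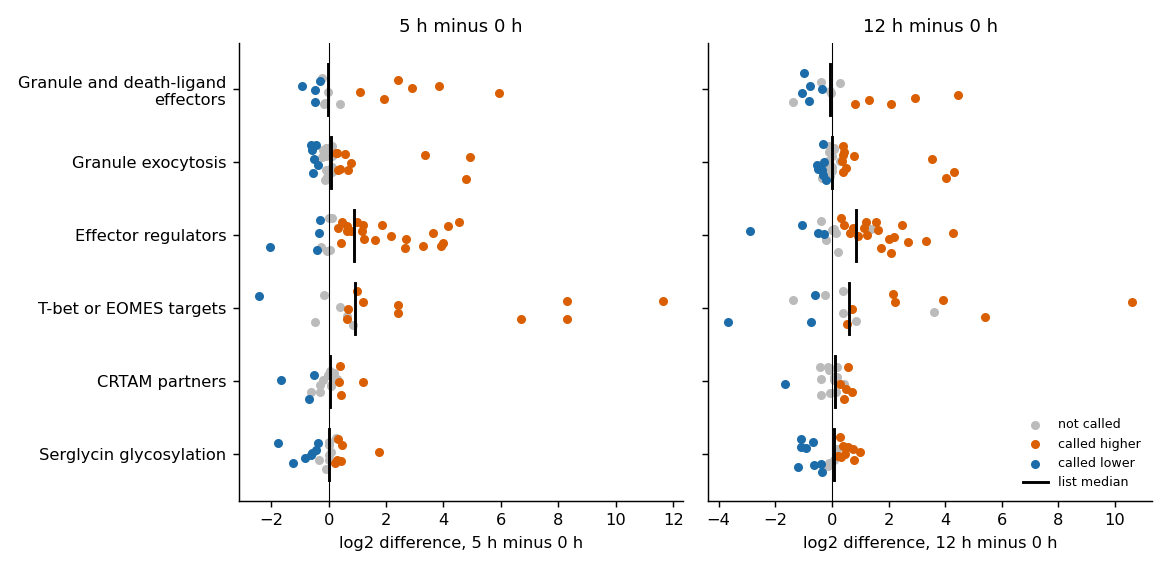
Log2 differences of the tested genes in the 6 lists (rows) for 5 h minus 0 h (left) and 12 h minus 0 h (right); orange dots were called higher and blue dots lower at an edgeR adjusted p under 0.05, grey dots were not called, and the black bar is the list median. The medians of regulators (0.88 and 0.84) and of T-bet or EOMES targets (0.92 and 0.62) lie to the right of 0, while the other 4 lists have medians between -0.08 and 0.11.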

How the data were processed

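The authors deposited a table of whole-number counts per Ensembl gene and a table of log2 expression. Cutadapt, RSEM, DESeq2 and the build GRCh38.p13 are listed in the submitters' processing notes, without roles or versions. The counts may therefore be rounded estimates. The sources used here do not give the aligner, the annotation release or the strand setting. Each deposited log2 value was found to be the log2 of 1 plus the count over a library's own factor. That table lists 12692 genes and served only in an alternative. Of 19569 genes, 19543 matched a symbol. The table gives 18 pseudoautosomal genes a second row with the same counts; 13 of these rows are in the fit, and none is counted in a list. Coordinates (1-based) and exon lengths came from GENCODE release 29 (GRCh38).

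One edgeR 4.0.16 quasi-likelihood fit (R 4.3.3) covered the 9 libraries with a coefficient per group and TMM factors. The filterByExpr function kept 12036 genes. Calls needed a Benjamini-Hochberg adjusted p under 0.05 over all of these. SE is the absolute log2 difference over the square root of F. The fit was tested on simulated data. Alternatives used RLE factors, no filter, DESeq2 1.42.0, limma 3.58.1 on the deposited log2 values, the replicate number as a block, each library left out, and a 2-fold minimum. The members and lists were chosen with earlier results of these data known. Named list genes are the 6 called genes of each list with the biggest log2 difference from 0 h, and the 5 most alike genes per profile. One gene that this rule names is not reported here. Others named were chosen after their values were seen. The labels do not say whether replicates were separate cultures, so p-values reflect the spread among these libraries alone, which may be technical. No 2 libraries of a group agreed within sampling noise (chi-square over degrees of freedom 2.87 to 8.92).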

Additional observations from a re-analysis of the deposited data

Results flagged for a closer look

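TNF, the tumour necrosis factor gene, stood on opposite sides of the control level at the 2 activated times: all 5 h libraries lay above all 0 h libraries and all 12 h libraries lay below them. Its means were 0.778 ± 0.278 CPM at 0 h, 4.28 ± 0.463 CPM at 5 h and 0.276 ± 0.147 CPM at 12 h (SD, n = 3), and the log2 difference of 12 h minus 5 h was -3.76 (edgeR adjusted p = 4.53e-06). The 12 h level was not called against 0 h (log2 -1.36, edgeR adjusted p = 0.0727). TNF was scarce, with 18 counts in the 0 h group, 87 at 5 h and 6 at 12 h, so its 12 h level is known only roughly. Groups of 3 libraries were too small for a check on single outlying libraries.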

How the results depend on the processing

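Counts of called genes stayed within 1.5 times the values given above with RLE factors, and with the replicate number as a block (2989 genes higher and 2992 lower at 5 h than at 0 h, 3149 and 3027 at 12 h against 0 h, 2156 and 2129 at 12 h against 5 h). The numbers are not shown to pair the libraries: correlations of same-numbered libraries' deviations ran from -0.143 to 0.163. Of 963 recomputed main values, 894 stayed within these bounds, 69 moved and none changed direction, apart from EOMES and GZMB at 12 h against 5 h, which were not called and ranged around 0 (-0.07 to 0.05 and -0.07 to 0.11 on the log2 scale). With a 2-fold minimum, the genes called were 663 higher and 774 lower (5 h against 0 h), 702 and 738 (12 h against 0 h), and 250 and 270 (12 h against 5 h). With that minimum, the lists had the following calls. Granule effectors had 0 lower at 5 h and 1 lower at 12 h against 0 h, with 0 higher and 4 lower at 12 h against 5 h. Exocytosis genes had 3 higher and 0 lower at each time against 0 h, and 0 in either direction at 12 h against 5 h. Regulators had 1 lower at 5 h and 2 lower at 12 h against 0 h, with 0 higher and 6 lower at 12 h against 5 h. The T-bet or EOMES targets had 1 lower at 12 h against 0 h. CRTAM-related genes had 1 higher and 1 lower at 5 h and 0 higher at 12 h against 0 h, and 0 in either direction at 12 h against 5 h. Glycosylation genes had 1 higher and 2 lower at 5 h, 0 higher and 3 lower at 12 h against 0 h, and 0 in either direction at 12 h against 5 h. With DESeq2, exocytosis genes had 4 lower at 12 h against 0 h and 2 lower at 12 h against 5 h (5 in the main fit), and CRTAM-related genes 1 lower at 5 h. Without the filter on low counts, 3 exocytosis genes were lower and 3 CRTAM-related genes higher at 12 h against 5 h. With limma on the deposited log2 values, 3 exocytosis genes were lower at 12 h against 5 h, and of the targets 6 were higher at 5 h and 4 at 12 h against 0 h, and 5 lower at 12 h against 5 h. Among these targets, IFNG, CCL3, CCL4 and XCL1 had values in 13 alternative fits and lost none of their calls there. CXCR3 and HAVCR2 had values in 14 and also lost none of their calls. A count of calls also drops where a gene has no value in a fit. The cause of the shifts in these counts was not tested.

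Leaving out each of the 9 libraries gave these ranges where a count moved by over 1.5 times. Effectors lower at 12 h than at 0 h numbered 3 to 5, and effectors higher at 12 h than at 5 h 1 to 3. Exocytosis genes lower at 12 h than at 0 h numbered 4 to 7. At 12 h against 5 h, 3 to 7 of them were higher and 2 to 4 lower. The main fit had 5 lower, so every fit with a library left out gave fewer. Regulators higher at 12 h than at 5 h numbered 3 to 6. CRTAM-related genes lower at 5 h than at 0 h numbered 1 to 4, and higher at 12 h than at 5 h 0 to 3. Glycosylation genes lower at 5 h numbered 4 to 8 and higher at 12 h 5 to 9 against 0 h, with 3 to 6 higher at 12 h against 5 h. GZMB log2 differences from 0 h ranged from 8.58 to 11.65 at 5 h and from 8.60 to 11.66 at 12 h, the highest without 0 h replicate 3, which holds the only 2 counts there. With a prior count of 0.5 in place of 2, the most alike genes kept 4 of 5 for CRTAM, EOMES and SRGN, 3 for TBX21 and 1 for GZMB. Depth limits GZMM, GZMK and PRF1, with 57, 270 and 285 counts over the 9 libraries, and TBX21 outside 5 h.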

Other observations

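The protein-coding genes next to the 9 members were compared with them, a choice made after the data were seen. TBKBP1, which lies 21.2 kb from TBX21 and encodes a binding partner of the kinase TBK1, rose to 30.0 ± 3.39 CPM at 5 h and 23.7 ± 2.04 CPM at 12 h, against 7.27 ± 2.21 CPM at 0 h (SD, n = 3; edgeR adjusted p = 4.67e-09 and 1.06e-07). Between 5 h and 12 h, where TBX21 dropped by 3.31 on the log2 scale, TBKBP1 had a log2 difference of -0.33 (edgeR adjusted p = 0.0966). OSBPL7, on the other side of TBX21, was not called at either time. ESM1, 1.58 kb from GZMK, rose to 1.504 ± 0.423 CPM at 5 h and 1.43 ± 0.622 CPM at 12 h, against 0.355 ± 0.198 CPM at 0 h (edgeR adjusted p = 0.00531 and 0.00503), on 70 counts in all. UBASH3B, the phosphatase gene 24.0 kb from CRTAM, rose by log2 0.59 at 5 h, where CRTAM differed by 7.26. PALD1, 28.9 kb from PRF1, rose at 5 h (log2 0.70), where PRF1 differed by -1.80. KIF1BP, 44.6 kb from SRGN, fell at 5 h and 12 h (log2 -0.51 and -0.56), and BSG, 21.35 kb from GZMM, fell at 5 h (log2 -0.51). VPS26A, on the other side of SRGN, fell at 12 h (log2 -0.45), and SLC4A7, 231.5 kb from EOMES, rose at both times (log2 0.71 and 1.21). JHY, CMC1 and CDC34 were not called against 0 h, and CDC20B, GZMH, STXBP6 and ADAMTS14 were too scarce to test.

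Some further genes of the lists, chosen after their values were seen, are known from cytotoxic and NK cells. KLRD1, which encodes the CD94 chain of NK-cell receptors, rose to 11.2 ± 3.30 CPM at 5 h and 10.1 ± 0.886 CPM at 12 h, against 4.87 ± 0.379 CPM at 0 h (edgeR adjusted p = 0.000156 and 0.000746). Of the 14 NK-cell genes, 3 were tested, and KLRD1 was the only gene called higher. The untested genes were scarce and went both ways. KLRF1 had 0, 11 and 9 counts at 0 h, 5 h and 12 h, and FCGR3A had 3, 0 and 0. NCR3 fell to 0.694 ± 0.415 CPM at 12 h, against 2.345 ± 1.157 CPM at 0 h (log2 -1.90, edgeR adjusted p = 0.00806). It was not called at 5 h, and CD160 was not called at either time. CD8B fell to 0.145 ± 0.151 CPM at 5 h, against 1.675 ± 0.229 CPM at 0 h. NKG7, a granule membrane protein of cytotoxic cells, had 19.6 ± 2.73 CPM at 5 h and 21.7 ± 3.87 CPM at 0 h with no call, and fell to 12.5 ± 2.03 CPM at 12 h (log2 -0.77). ZNF683, which encodes the tissue-residency factor Hobit, was untested, at 0.230 ± 0.279 CPM at 5 h, 0.0494 ± 0.0855 CPM at 12 h and 1.57 ± 0.361 CPM at 0 h. DOCK8, a guanine nucleotide exchange factor needed for lytic synapses, had no count in any of the 9 libraries, which allows up to 0.0475 CPM over all of them.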
